A study of Mus musculus with 6 samples.

Results

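The baseline transcriptome of the mouse line TIBx was described from its 3 parental libraries, those whose genotype is given as WT, out of 6 libraries in the series. The libraries, replicates A, B and C, were chosen by that label alone and no measured value was used. As cell type the submitters list liver BNL 1ME A.7R.1, the name of a chemically transformed line that derives from embryonic mouse liver. The cells carried no stated alteration and were grown in DMEM with 10% serum, 2 mM glutamine, 1 mM pyruvate, nonessential amino acids, antibiotics and 100 mM HEPES, and total RNA was made into stranded libraries. A single line stood for the parental state, and nothing in the labels tells whether A, B and C were grown separately, so the SD given with each mean may reflect technical variation only. No comparison was made with the other genotype of the series.

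Liver holds hepatocytes, which make plasma proteins, urea, bile acids and glucose, and several supporting cell types, among them bile duct cells, endothelial cells, macrophages, stellate cells and fibroblasts. Hepatocyte identity rests on a set of transcription factors, such as HNF4A and the FOXA proteins, that act together on the promoters of hepatocyte genes. Mesenchymal cells such as fibroblasts make and remodel the extracellular matrix, a mesh of collagens, glycoproteins and proteoglycans, and carry vimentin filaments in place of the keratins of epithelia. Many enzymes of sugar and amino acid metabolism exist as a form enriched in liver and a form used by most other cells, and dividing cells in culture usually hold the second.

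The libraries held 8865458 (A), 8933935 (B) and 8803928 (C) expected counts over 24054 genes, so that 1 CPM, where each library is scaled to 1000000 counts, is about 9 counts. A gene was called present at 1 CPM or more in all 3 libraries, which 10826 genes reached (45.0% of the table). Another 11853 genes (49.3%) had 3 counts or fewer over the 3 libraries together, a floor of 0.113 CPM, and 10693 of these had none. The remaining 1375 genes lay between. CPM is a gene's share of a library and grows with transcript length, so levels of different genes were compared as TPM, a length-scaled level made of counts per kilobase of the longest annotated transcript scaled to the same sum in each library. The median TPM of the 10826 present genes was 24.9. Library B stood apart from A and C: reads of the ribosomal RNA precursor Rn45s made up 2.66% of B, beside 1.01% of A and 1.02% of C, and the nuclear RNA Malat1 was at 10412 CPM against 2093 and 2578. Of 735 present genes that belong to the lists and families described below or to the highest ranks, 32 had a mean TPM that moved by over 1.5 times without library B, and those named are given for each library or with the mean without B. In bulk RNA, fewer cells of a type and less RNA per cell cannot be told apart.

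The defining markers of liver parenchyma were absent. Alb, Ttr and Apoa1, which encode the plasma proteins albumin, transthyretin and apolipoprotein A-I, had 0 counts in each of the 3 libraries. Hnf4a and Foxa2, central hepatocyte transcription factors, also had 0 counts in each, as did Cps1, the entry enzyme of the urea cycle, and Cyp7a1, the rate-limiting enzyme of bile acid synthesis. A count of 0 allows up to 0.113 CPM over the 3 libraries, counting error only. These values go against a hepatocyte profile under the label liver, and no other cell type name is given to the line here.

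Across 7 lists of hepatocyte genes with 189 members, 22 members (11.6%) were present and 153 (81.0%) were at 3 counts or fewer, beside 45.0% and 49.3% of all genes. No member was among the 1000 highest levels. Of 61 secreted proteins, 3 were present and 55 were at the floor. Complement C3 was the highest at 32.3, 63.6 and 35.5 TPM in A, B and C, and ceruloplasmin (Cp) was at 4.92 ± 1.07 TPM (SD, n = 3). C3 was higher in library B than in A and C, which lay close together. Apoe, which many cell types besides hepatocytes make, had 2, 5 and 3 counts.

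Of 23 hepatocyte transcription factors, 19 were at the floor. The 3 present were Rxra, the shared partner of many nuclear receptors, at 55.6 ± 11.6 TPM, the sterol receptor Nr1h3 at 3.96 ± 0.796 TPM and Onecut2 at 0.628 ± 0.504 TPM (0.337 TPM without library B). None of 31 xenobiotic enzymes was present, and 28 were at the floor, among them Cyp2e1, Cyp3a11 and Cyp3a13. Members of the urea cycle and amino acid list were present in 6 of 26 cases. Fah, the last enzyme of tyrosine breakdown, was at 71.5, 74.7 and 85.4 TPM, and the urea cycle enzymes Asl and Ass1, which also serve arginine synthesis outside the liver, were at 31.4 ± 1.38 and 30.6 ± 8.22 TPM. Otc, Arg1 and Nags of the same cycle had no count. For bile acids, 2 of 16 members were present, Hsd3b7 at 73.9 ± 16 TPM and the sterol hydroxylase gene Cyp27a1 at 8.36 ± 2.48 TPM. In glucose production 4 of 14 were present, led by the glucose-6-phosphate transporter Slc37a4 at 11.9 ± 1.96 TPM, Pcx at 5.96 ± 1.14 TPM and Khk at 4.24 ± 0.794 TPM, while G6pc, Pck1 and Fbp1 had no count. In lipid export and ketone synthesis 4 of 18 were present, among them Cpt1a, the gate of mitochondrial fatty acid import, at 63.5 ± 13.2 TPM and Acsl1 at 33.9 ± 2.40 TPM.

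**Figure D1:**
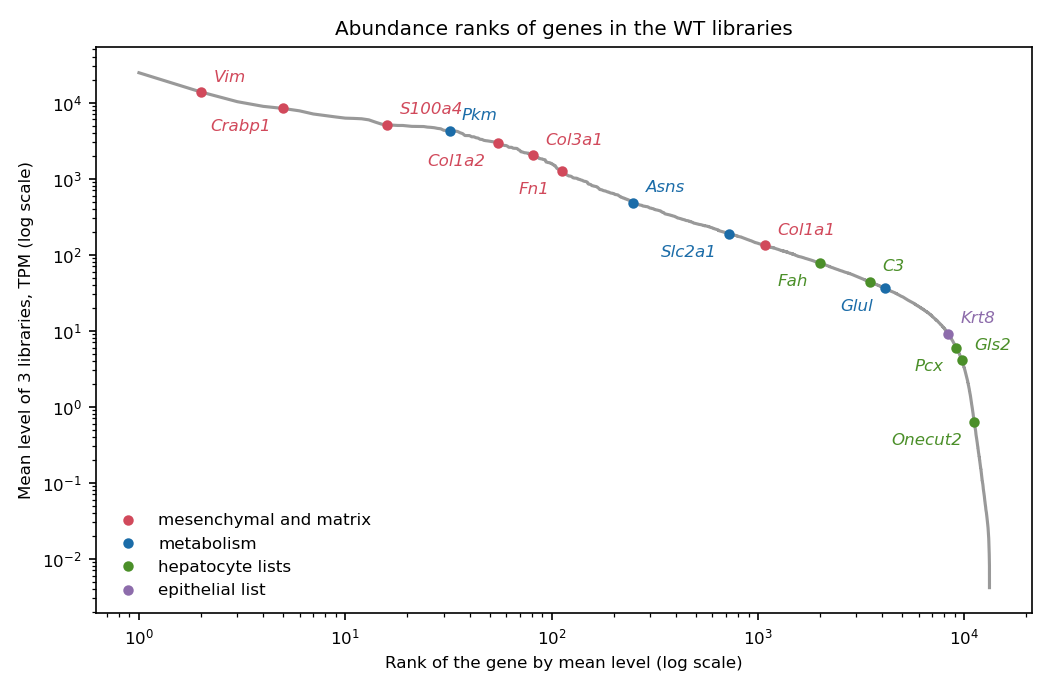
Mean level of each gene (TPM, mean of the 3 WT libraries, log axis) against its rank (log axis), with named genes coloured by group. Vim (13785 TPM) and Crabp1 (8381 TPM) lie at the top of the curve, and the highest hepatocyte gene drawn, Fah (77.2 TPM), lies well down its slope.

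Genes of other lineages were also sparse. Each list that follows had a smaller share of members present than all genes (45.0%) and a larger share at the floor (49.3% of all genes). Of 31 epithelial genes, 1 was present, the keratin Krt8 at 9.13, 9.58 and 8.48 TPM, and 28 were at the floor, among them the adhesion genes Cdh1 and Epcam and the keratin partner Krt18, with 1 count. Of 18 bile duct genes 4 were present. The secreted phosphoprotein Spp1, which mesenchymal and immune cells also make, was at 1683, 1379 and 3127 TPM (rank 79), the anion exchanger Slc4a2 at 63.5 ± 18.7 TPM and Sox9 at 10.5, 34.0 and 11.5 TPM, with library C the highest for Spp1 and B for Sox9. Krt19 and Epcam, which mark bile ducts, had no count. Present were 2 of 20 endothelial genes (Stab1 at 20.4 ± 3.56 and Egfl7 at 12.2 ± 1.07 TPM) and 1 of 22 leukocyte genes (Itgb2 at 8.83 ± 1.40 TPM), and Ptprc, the common leukocyte antigen, had no count. None of 10 fat cell genes and none of 12 skeletal muscle genes was present. Of 12 neural and glial genes 3 were present, and the highest was Sox2 at 48.3, 55.4 and 56.4 TPM.

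Fibroblast genes were present in 23 of 31 cases (74.2%, beside 45.0% of all genes), with a median of 474 TPM over those present. Of them, 14 ranked among the 500 highest levels. This list, like the others, was chosen with earlier results of these data known. Vim, the intermediate filament of mesenchymal cells, was at 14301, 13774 and 13281 TPM, the second highest level of all genes given a TPM. Lgals1, a galactoside-binding lectin, was at 8785, 7204 and 7402 TPM, and the calcium-binding S100a6 at 7580, 5790 and 6890 TPM. The 3 libraries lay close for each of the 3 genes. Not all fibroblast markers were found: Thy1, Fbln2, Tcf21 and Mfap5 had no count, Lum had 2 and Dpt had 1. Of 17 mesenchymal transcription factors 14 were present, led by Osr1 at 150, 240 and 157 TPM, Prrx1 at 103, 199 and 102 TPM and Twist1 at 117, 84.5 and 83.6 TPM, so that library B was the highest for Osr1 and Prrx1 and not for Twist1.

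Of the lists for specialised mesenchymal cells that follow, only the contractile myofibroblast list had a larger share of members present than all genes (45.0%). The stellate cell list, the portal fibroblast and mesothelial list and the bone and cartilage list had smaller shares than all genes. Stellate cell genes were present in 4 of 20 cases, among them Ecm1 at 398 ± 167 TPM and the growth factor gene Hgf at 45.4 ± 4.44 TPM, while Lrat, which stores retinoid in stellate cells, had no count. Contractile myofibroblast genes were present in 10 of 17 cases. Tpm1 was at 732, 632 and 703 TPM, Flna at 353 ± 97.7 TPM and Cnn2 at 349 ± 23.5 TPM, but the smooth muscle genes Cnn1 and Myh11 had no count, Tagln had 1, and Acta2, the smooth muscle actin of activated myofibroblasts, was at 10.6 ± 2.47 TPM. Portal fibroblast and mesothelial genes were present in 4 of 13 cases, led by Igfbp6 at 598 ± 104 TPM, Msln at 151 ± 21.5 TPM and Cd200 at 27.5 ± 5.51 TPM, with Upk3b, Upk1b and Wt1 at no count. Of 14 bone and cartilage genes 4 were present, led by Phex at 93.7 ± 10.1 TPM, Dmp1 at 37.5 ± 22.0 TPM (24.8 TPM without library B) and Sox9. All 4 were farthest from the other libraries in B, and 3 were 2-fold or more apart between libraries.

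**Figure D2:**
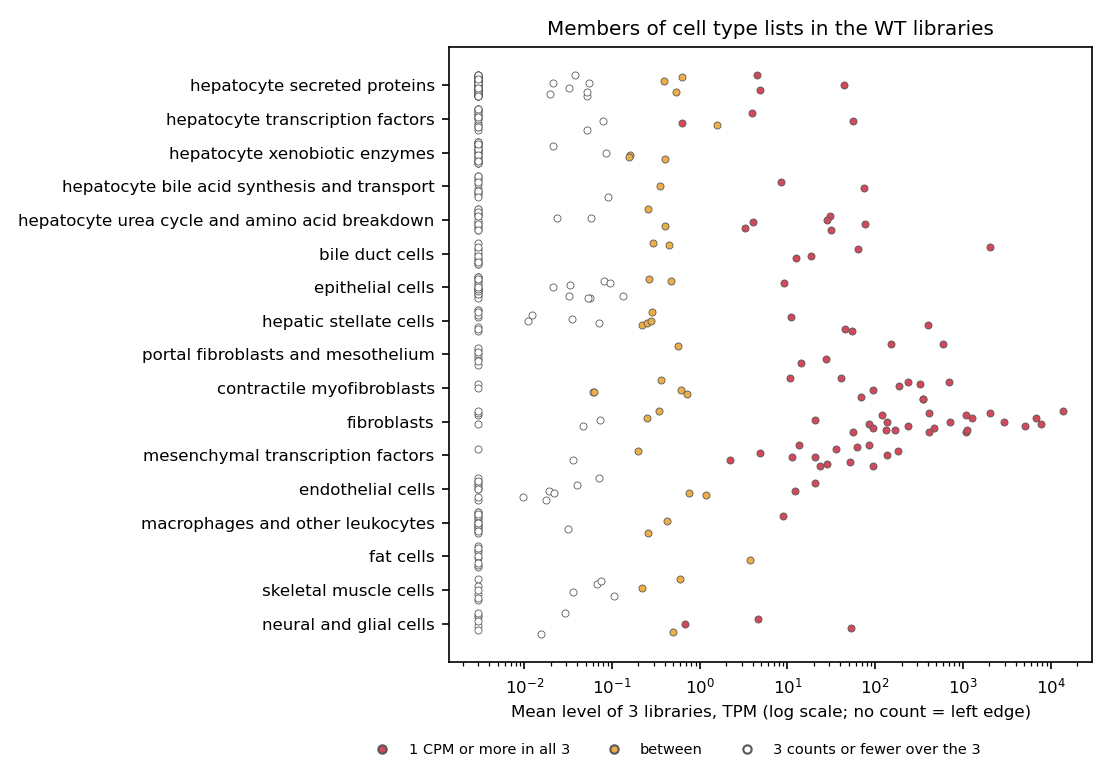
Mean level (TPM, log axis) of each member of 17 cell type lists over the 3 WT libraries, 1 point per gene, filled by whether the gene was present, between or at 3 counts or fewer. Points of the fibroblast list reach 13785 TPM, whereas the xenobiotic list has no present member.

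The 250 bases before the annotated start of 5 genes, from RefSeq on GRCm38.p6, are shown because these genes mark the ends of the scale: Alb and Apoa1 with no count, and Vim, Crabp1 and Col1a2 among the highest. All 5 lie on the plus strand, at chr5:90460620-90460869 (Alb), chr9:46228380-46228629 (Apoa1), chr2:13574061-13574310 (Vim), chr9:54764498-54764747 (Crabp1) and chr6:4505368-4505617 (Col1a2). Capitals mark matches on either strand to 5 motifs. These were TTGCNNAA for C/EBP, CCAAT for the NF-Y site, TATAAA for the TATA box, GGGCGG for the GC box and CAAAGTCCA for HNF4. Matches of different motifs were allowed to overlap.
Alb: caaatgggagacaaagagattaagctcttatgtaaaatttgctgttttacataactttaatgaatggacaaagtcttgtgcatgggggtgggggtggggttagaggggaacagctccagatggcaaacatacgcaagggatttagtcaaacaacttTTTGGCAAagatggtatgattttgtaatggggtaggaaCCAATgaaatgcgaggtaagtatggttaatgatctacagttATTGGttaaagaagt
Apoa1: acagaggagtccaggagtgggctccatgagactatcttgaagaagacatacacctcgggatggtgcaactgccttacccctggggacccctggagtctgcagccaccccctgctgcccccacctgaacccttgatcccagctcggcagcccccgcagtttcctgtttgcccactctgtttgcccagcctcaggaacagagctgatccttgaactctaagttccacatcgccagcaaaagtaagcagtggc
Vim: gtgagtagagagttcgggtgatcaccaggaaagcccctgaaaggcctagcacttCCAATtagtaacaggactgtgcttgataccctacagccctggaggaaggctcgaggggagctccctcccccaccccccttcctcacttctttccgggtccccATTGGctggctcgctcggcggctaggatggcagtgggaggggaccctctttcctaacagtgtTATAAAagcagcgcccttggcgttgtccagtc
Crabp1: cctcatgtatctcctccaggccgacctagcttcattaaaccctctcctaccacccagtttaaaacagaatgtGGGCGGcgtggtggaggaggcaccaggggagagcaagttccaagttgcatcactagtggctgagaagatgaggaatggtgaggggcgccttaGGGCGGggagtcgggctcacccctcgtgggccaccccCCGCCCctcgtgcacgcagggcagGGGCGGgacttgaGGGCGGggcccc
Col1a2: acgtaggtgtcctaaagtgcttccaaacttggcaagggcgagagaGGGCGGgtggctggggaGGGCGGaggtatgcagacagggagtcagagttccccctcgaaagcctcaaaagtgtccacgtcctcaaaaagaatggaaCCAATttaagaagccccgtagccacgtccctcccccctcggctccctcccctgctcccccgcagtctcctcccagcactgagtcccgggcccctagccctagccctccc
Alb held 1 C/EBP match and 2 CCAAT matches, Apoa1 held no match, Vim 2 CCAAT matches and 1 TATA box, Crabp1 5 GC boxes and Col1a2 2 GC boxes and 1 CCAAT match. Of 27025 promoters of this length, the C/EBP match occurred in 9.55%, CCAAT in 34.5%, the TATA box in 13.0%, the GC box in 32.9% and the HNF4 match in 0.381%. The windows of Alb and Apoa1 held 2 and 4 CpG, and those of Vim, Crabp1 and Col1a2 held 8, 12 and 11. Over the genes with a promoter in the table, the median was 17 CpG for 8720 present genes and 3 CpG for 8132 genes at the floor, and 3 CpG also for 149 genes of the hepatocyte lists. A GC box was found in 62.1% of present genes, 22.6% of genes at the floor and 22.1% of hepatocyte genes. The fibroblast list, although largely present, had a median of 4.5 CpG and a GC box in 36.4% of its 22 promoters. The C/EBP match was found in 19.5% of hepatocyte promoters and 32.6% of those of the secreted proteins, beside 7.08% of present genes and 11.2% of genes at the floor. A match is a description of the letters and not a binding site.

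By CPM the 20 largest shares belonged to translation genes (Eef1a1, Eef2, Rpsa, Tpt1, Rpl4), structural and nuclear RNA (Rn45s, Rmrp, Malat1), the cytoskeleton and its linkers (Vim, Actb, Ahnak, Plec), matrix (Col1a2, Col3a1, Col18a1, Fn1), glycolysis (Pkm, Gapdh), the cathepsin Ctsl and the chaperone Hsp90ab1. Eef1a1, which delivers aminoacyl-tRNA to the ribosome, was at 21838, 14542 and 22401 CPM, and Col1a2, the second chain of type I collagen, at 6084, 7629 and 6727 CPM. The 10 largest shares together took 8.48%, 10.6% and 8.71% of counts. The 100 largest took between 26.1% and 26.6%. Ahnak, Plec and Fn1, all with long transcripts, were higher in library B: Ahnak was at 3384, 7677 and 3542 CPM, Fn1 at 2557, 7086 and 3577 CPM and Plec at 2875, 7127 and 2303 CPM.

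By TPM the highest were Eef1a1 at 24719 ± 3048 and Vim, followed by the ribosomal protein gene Rps12, Rpph1 (the RNA part of ribonuclease P) and Crabp1. Genes with no matched length (Rn45s) or a transcript under 300 bases were not ranked. Rmrp (281 bases, mean 5079 CPM) was thus left out, whereas Rpph1 (319 bases) was kept, so the top of this order depends on that limit. Crabp1, a cytoplasmic carrier of retinoic acid with a narrow tissue range in the adult, was the fifth highest at 7410, 8368 and 9365 TPM. The 3 values lay close, and Crabp1 ranked between 4 and 6 with each library left out in turn. Tpt1, Lgals1, S100a6, S100a4 and Gapdh were also among the 20 highest, and Rpl41, Rpl23a, Rpl19, Rpl8, Rpl7, Rps27rt, Rplp1, Rpl7a, Rpl34-ps1 and Eef2 filled the rest. Of 46 cytosolic ribosomal protein genes all were present, with a median of 2452 TPM. Ribosomal protein genes, Eef1a1 and Gapdh have many near-identical copies in the genome among which the counting can divide reads, so their single values are uncertain, as is that of the annotated pseudogene Rpl34-ps1.

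Collagen chain genes were present in 17 of 44 cases (38.6%), and 20 were at the floor (45.5%), near the shares over all genes of 45.0% and 49.3%. Col1a2 stood at 2437, 3736 and 2705 TPM, Col3a1, the fibrillar collagen of soft tissue, at 1672, 2156 and 2279 TPM, and Col18a1, a basement membrane collagen that contains endostatin, at 1745, 2444 and 1834 TPM. Their ranges overlapped for Col3a1 and Col18a1, and every library had Col1a2 above both. Col1a1, the first chain of type I collagen, was at 72.5, 219 and 106 TPM. Type I collagen is usually built from a pair of first chains and a single second chain, and the level of Col1a2 exceeded that of Col1a1 in all 3 libraries by factors of 33.6, 17.1 and 25.6 (25.4 ± 8.26, SD, n = 3; 29.6 without library B). Col5a2 exceeded Col5a1 by 4.31 ± 1.28, and Col4a1 exceeded Col4a2 by 1.90 ± 0.408, less than the excess of Col1a2 over Col1a1 in each library. Col2a1, Col11a1 and Col11a2 of cartilage had 3 counts or fewer, and Col6a3, a usual partner of Col6a1 and Col6a2, had 8.

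**Figure D3:**
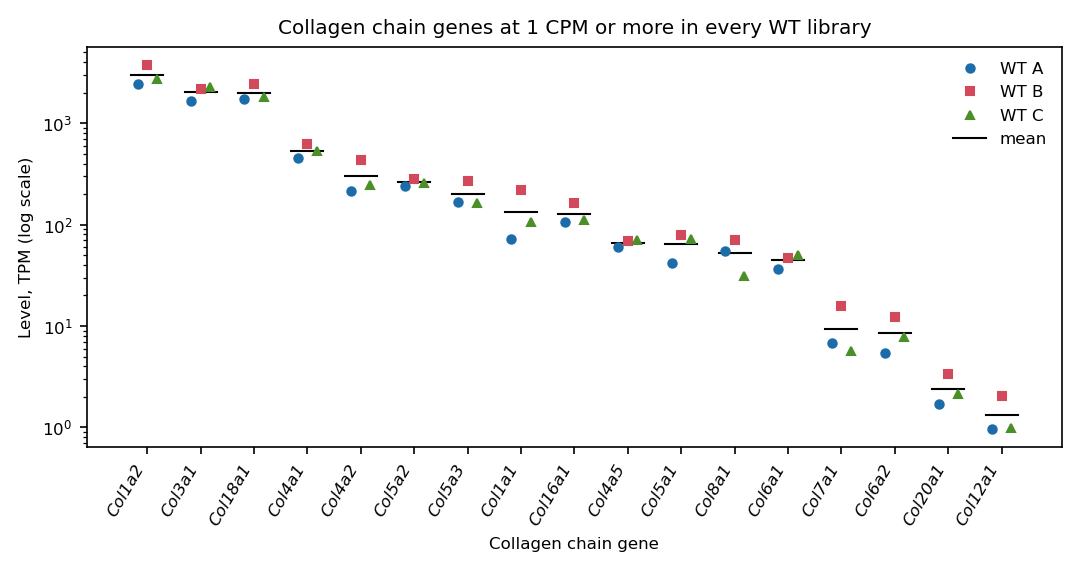
Level (TPM, log axis) of the 17 collagen chain genes that were present, with 1 point per WT library and a bar at the mean. Col1a2 (2959 TPM) leads the row, and Col1a1 (132 TPM) is the eighth.

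Of all genes 45.0% were present. The shares were 57.1% for basement membrane, 62.5% for matrix glycoproteins, 53.3% for proteoglycans and 61.5% for integrins. They were 88.5% for collagen processing and 81.1% for proteases and inhibitors. In the basement membrane list 12 of 21 genes were present, led by Col4a1 at 538 ± 86.3 TPM, Col4a2 at 300.1 ± 121 TPM and the laminin chain Lamb1 at 249.5 ± 97.9 TPM. Of 48 matrix glycoproteins 30 were present; after Spp1 came fibronectin (Fn1) at 659, 2232 and 925 TPM and Igfbp6, with Eln and Fbln1 among those at no count. Of 30 proteoglycan and hyaluronan genes 16 were present, led by decorin (Dcn) at 498, 367 and 557 TPM, biglycan (Bgn) at 173, 577 and 259 TPM and the syndecan Sdc2 at 172 ± 11.1 TPM. Decorin was lowest and biglycan highest in library B. Collagen processing genes were present in 23 of 26 cases, led by the hydroxylase subunit P4hb at 1113 ± 28.5 TPM, the prolyl isomerase Ppib at 711 ± 61.4 TPM and the collagen chaperone Serpinh1 at 607 ± 43.3 TPM. Proteases and inhibitors were present in 30 of 37 cases, with the cathepsins Ctsl at 1249 ± 138 TPM and Ctsd at 847 ± 39.2 TPM, and the inhibitor Timp3 at 380, 589 and 974 TPM. Integrins were present in 16 of 26 cases, led by Itgb1 at 513 ± 104 TPM, Itga5 at 144 ± 58.4 TPM and Itgav at 127 ± 77.8 TPM (82.1 TPM without library B), the partners in fibronectin and vitronectin receptors.

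Glycolysis genes were present in 20 of 22 cases (90.9%, beside 45.0% of all genes) with a median of 201 TPM. Gapdh was at 4525, 6461 and 4642 TPM, Pkm at 4427, 4285 and 4065 TPM and Aldoa at 2669, 2836 and 2532 TPM. Slc16a3, a lactate exporter, had no count. All 71 nuclear genes of the respiratory chain were present, with a median of 224 TPM and with Atp5b at 1819 ± 67.3, Cox4i1 at 1244 ± 33.6 and Cox8a at 1085 ± 233 TPM. Pyruvate entry and citrate cycle genes were present in 32 of 33 cases, among them Cs at 309 ± 48.1 TPM and Idh2 at 283 ± 11.1 TPM, with Pdk4 at no count. The pentose phosphate pathway had 8 of 9 members present, led by Taldo1 at 277 ± 30.8 TPM, Pgls at 228 ± 22.4 TPM and Tkt at 156 ± 15 TPM.

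Glutamine and glutamate genes were present in 26 of 29 cases. Asns, which makes asparagine from glutamine, was at 563, 518 and 368 TPM, Psat1 at 249 ± 39.6 TPM and the aminotransferase Got2 at 243 ± 21.1 TPM. The level of Asns was 15.5, 13.0 and 11.7 times that of Glul, the glutamine synthetase gene, which is strong around the central vein of liver. Serine, glycine and folate genes were present in 19 of 23 cases, led by Phgdh at 495, 469 and 323 TPM, Shmt2 at 312, 368 and 213 TPM and Mthfd2 at 272, 281 and 205 TPM. Library C was the lowest of the 3 for Asns and for each of these 3 genes. Proline, arginine and polyamine genes were present in 19 of 20 cases, led by ornithine decarboxylase (Odc1) at 986 ± 134 TPM, Oaz1 at 618 ± 139 TPM and Sat1 at 385 ± 67.2 TPM.

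All 24 genes of cholesterol synthesis and uptake were present, led by Fdps at 636 ± 52.8 TPM, Sqle at 385 ± 17.3 TPM and Msmo1 at 337 ± 43.8 TPM. Fatty acid synthesis genes were present in 16 of 17 cases, led by the desaturases Scd2 at 804 ± 233 TPM and Scd1 at 458 ± 96.9 TPM and by the synthase Fasn at 203, 500.4 and 261 TPM, of which library B was the highest. Fatty acid oxidation genes were present in 23 of 25 cases, led by Slc27a1 at 201 ± 44.7 TPM, Acadvl at 135 ± 3.91 TPM and Acadm at 126 ± 14.0 TPM. Glutathione and thioredoxin genes were present in 26 of 27 cases, led by Gpx4 at 1013 ± 56.6 TPM, Gstp1 at 922 ± 143 TPM and Gpx1 at 450.3 ± 59.4 TPM. Of 12 iron genes 9 were present, with the ferritin chains Ftl1 at 4763 ± 322 TPM and Fth1 at 1425 ± 392 TPM and the ferritin receptor Ncoa4 at 60.6 ± 5.39 TPM, and Hamp, the hepatocyte hormone hepcidin, had no count.

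In 11 enzyme or transporter pairs with a liver form and a widespread form, the liver form had no count in 7 and 3 counts or fewer in 8. The widespread form was higher in all 3 libraries in 9 pairs. The level of Pkm was at least 47962-fold that of Pklr and that of Slc2a1 at least 3941-fold that of Slc2a2, each computed against 3 counts over the group. The same bound was 956-fold for Pygb over Pygl, 943-fold for Pck2 over Pck1, 873-fold for Mat2a over Mat1a, 202-fold for Fabp5 over Fabp1 and 16.9-fold for Arg2 over Arg1. Gys2, the liver glycogen synthase, had 1 count beside Gys1 at 46.0 ± 19.6 TPM. Acaca was 35.2-fold above Acacb, the form listed as that of liver, both present. This pair is among the 9, and which of its forms prevails in liver was not tested. The liver form was the higher one in 2 pairs. Pfkl, the liver phosphofructokinase, was at 213 ± 35.1 TPM beside Pfkp at 72.7 ± 15.4 TPM, and Pfkfb1 at 1.83 ± 0.588 TPM beside Pfkfb3 at 0.616 ± 0.185 TPM, the second of which was not present by the 1 CPM rule.

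**Figure D4:**
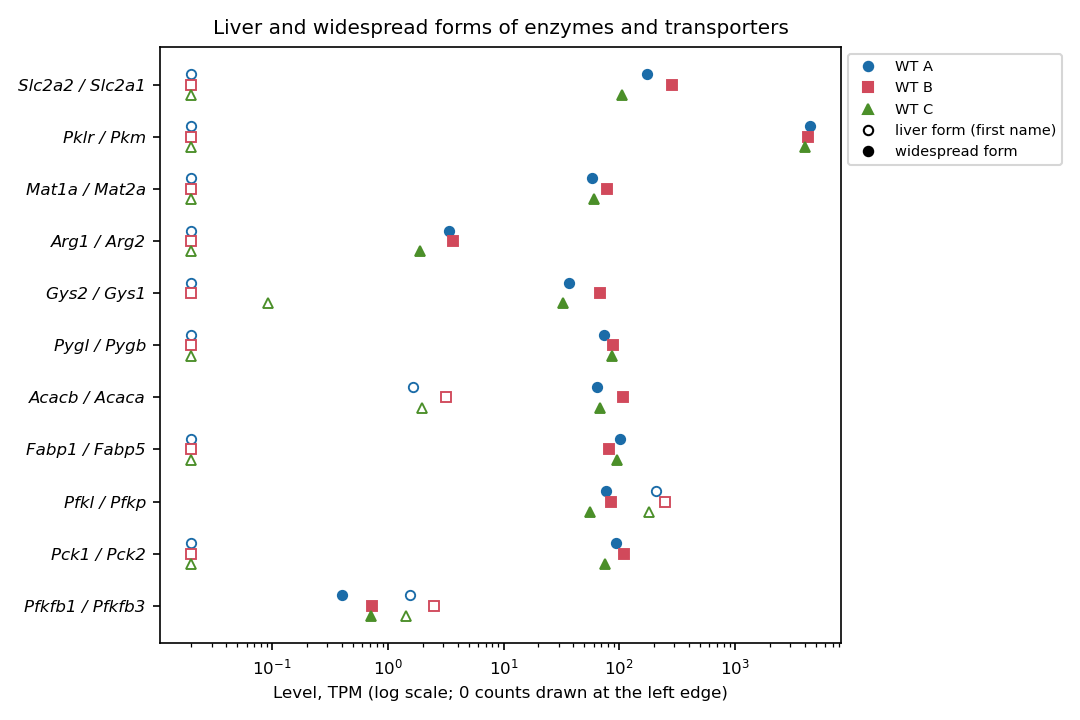
Level (TPM, log axis) of the liver form (open) and the widespread form (filled) of 11 enzymes and transporters in each WT library. Of the liver forms, 7 sit at the left edge with no count in any library, and in 9 pairs the filled symbols lie to the right of the open ones.

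All 40 cell cycle genes were present, led by Ccnd1 at 466 ± 14.3 TPM and its kinase Cdk4 at 452 ± 22.1 TPM, followed by Pcna at 107 ± 19.4 TPM. Of 22 genes of the CDK inhibitor and p53 list 18 were present, led by Ccng1 at 265 ± 41.0 TPM, Cdkn2b at 173 ± 15.9 TPM and Phlda3 at 143 ± 20.9 TPM. Cdkn1c and Perp had no count. Growth factor receptors were present in 26 of 40 cases, led by the receptor kinase Axl at 538, 809 and 564 TPM, the growth hormone receptor Ghr at 273 ± 49.4 TPM and Igf2r at 194 ± 47.8 TPM, with Erbb4, Fgfr2 and Fgfr4 at no count. Growth factors and cytokines were present in 30 of 44 cases, led by Grn at 469 ± 146 TPM, Angptl2 at 327 ± 17.4 TPM and the chemokine Ccl2 at 220.2 ± 74.0 TPM. Of 14 oncofetal liver genes 5 were present (35.7%, beside 45.0% of all genes). Hmga2, a chromatin protein of embryonic and tumour cells, was at 282, 434 and 279 TPM. Igf2bp2 was at 51.7 ± 10.2 TPM and Peg10 at 24.7 ± 11.2 TPM. H19, Igf2 and Dlk1 had no count, and Afp, the fetal albumin, had 3, 0 and 1 counts. Protein kinase A genes were present in 8 of 9 cases, led by the regulatory subunit Prkar1a at 113 ± 41.2 TPM, the inhibitor Pkig at 97.5 ± 10.5 TPM and the regulatory subunit Prkar2b at 85.6 ± 5.71 TPM.

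Of 39 Hox genes, the homeobox factors that mark position along the body axis, 7 were present (17.9%, beside 45.0% of all genes). All 7 belonged to the Hoxa cluster on chromosome 6, which has 11 members in the table (63.6% present). Only Hoxa7 and Hoxa10 reached 5 CPM in all 3 libraries, so that 2 Hox genes are present at that threshold. None of 10 Hoxb, 9 Hoxc and 9 Hoxd genes was present, and all 28 were at the floor, beside 49.3% of all genes. Hoxa7 was at 19.2, 19.4 and 17.6 TPM and Hoxa10 at 17.0, 18.5 and 19.8 TPM, overlapping ranges. Lower were Hoxa5 at 4.93 ± 0.232 TPM, Hoxa4 at 3.14 ± 0.497 TPM, Hoxa3 at 2.60 ± 1.20 TPM and Hoxa2 at 1.91 ± 0.352 TPM. The annotated span of Hoxa3 covers Hoxa4 and Hoxa5, so these 3 values are uncertain. Hoxa11 and Hoxa13, at the end of the cluster, had no count. The Hox cofactors were present in 3 of 3 Meis genes (Meis2 at 22.8 ± 5.38, Meis3 at 12 ± 1.89 and Meis1 at 3.62 ± 0.673 TPM) and 3 of 4 Pbx genes (among them Pbx2 at 30.6 ± 4.09 and Pbx3 at 12.8 ± 1.27 TPM).

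Of the other developmental families, Fox (43.2%) and Tbx (38.5%) genes were present about as often as all genes (45.0%), and Sox genes in 15.8% of cases. Of 19 Sox genes 3 were present, Sox2, Sox4 (35.6 ± 3.30 TPM) and Sox9, and Sox2, a factor of stem and neural cells, was the highest. The Tbx family had 5 of 13 present, led by Tbx15 at 70.3, 103 and 75.2 TPM, Tbx3 at 37.6 ± 21.5 TPM and Tbx18 at 11.3 ± 1.97 TPM. Lhx8, a LIM factor known from forebrain and jaw, was at 92.8, 103.5 and 72.0 TPM and Lhx6 at 8.48 ± 1.70 TPM, the only 2 of 8 Lhx genes present. Of 9 Pax genes 3 were present (Pax3 at 20.2 ± 3.8, Pax9 at 6.24 ± 2.23 and Pax6 at 2.17 ± 0.597 TPM), and of 6 sine oculis homeobox genes 3 (among them Six4 at 19.4 ± 2.11 and Six5 at 8.94 ± 2.23 TPM). Fox genes were present in 19 of 44 cases, led by Foxf1, a factor of gut and liver mesenchyme, at 84.1 ± 2.92 TPM, Foxk2 at 35.7 ± 8.36 TPM and Foxp1 at 31.9 ± 9.67 TPM. Gata2 (4.21 ± 1.40 TPM) and Gata3 (2.11 ± 0.773 TPM) were the 2 of 6 Gata genes present, and none of 15 Nkx genes was.

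Each pair of libraries differed by more than counting error, and the 3 were counted separately. The chi-square of counts divided by its degrees of freedom, near 1 for counting error alone, was 9.62 for A and C, 65.7 for A and B and 64.3 for B and C, over 11360 to 11394 genes. Across 10826 present genes, which are not independent replicates, Pearson's r of log2 CPM was 0.988 for A and C and 0.956 and 0.958 for the pairs with B. Over 8789 genes of mean 10 CPM or more the median coefficient of variation was 15.8% (quartiles 9.75% and 23.7%), and 748 genes (8.51%) were 2-fold or more apart between the highest and lowest library. Of these, 672 had B as the library farthest from the others. Between A and C, 41 of the 8789 genes were 2-fold apart, and 38 genes when the mean of 10 CPM was taken over A and C alone. The biological coefficient of variation from edgeR was 22.9% with all 3 libraries and 10.6% without B.

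The deviation of a library, its log2 CPM minus the mean of the other 2, went with transcript length. Over 5 equal groups of genes from the shortest to the longest transcripts its median in library B was -0.44, -0.27, -0.11, 0.06 and 0.42, and in A it ran from 0.24 to -0.23 and in C from 0.21 to -0.19. Across 8757 genes Spearman's rho of deviation and length was 0.63 in B, -0.55 in A and -0.47 in C, the 3 deviations being drawn from the same libraries, and for GC content it was 0.09 in B. By list, B was low for ribosomal proteins (median deviation -0.55) and the respiratory chain (-0.61) and high for basement membrane (0.55), beside -0.11 over all genes. The 4 present bone and cartilage genes deviated more, with a median of 1.19 in B. Histone genes, 44 of mean 10 CPM or more, were at -0.81 in B, with summed values of 2348, 1423 and 2534 CPM. The part of transcript length in these list differences was not tested.

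**Figure D5:**
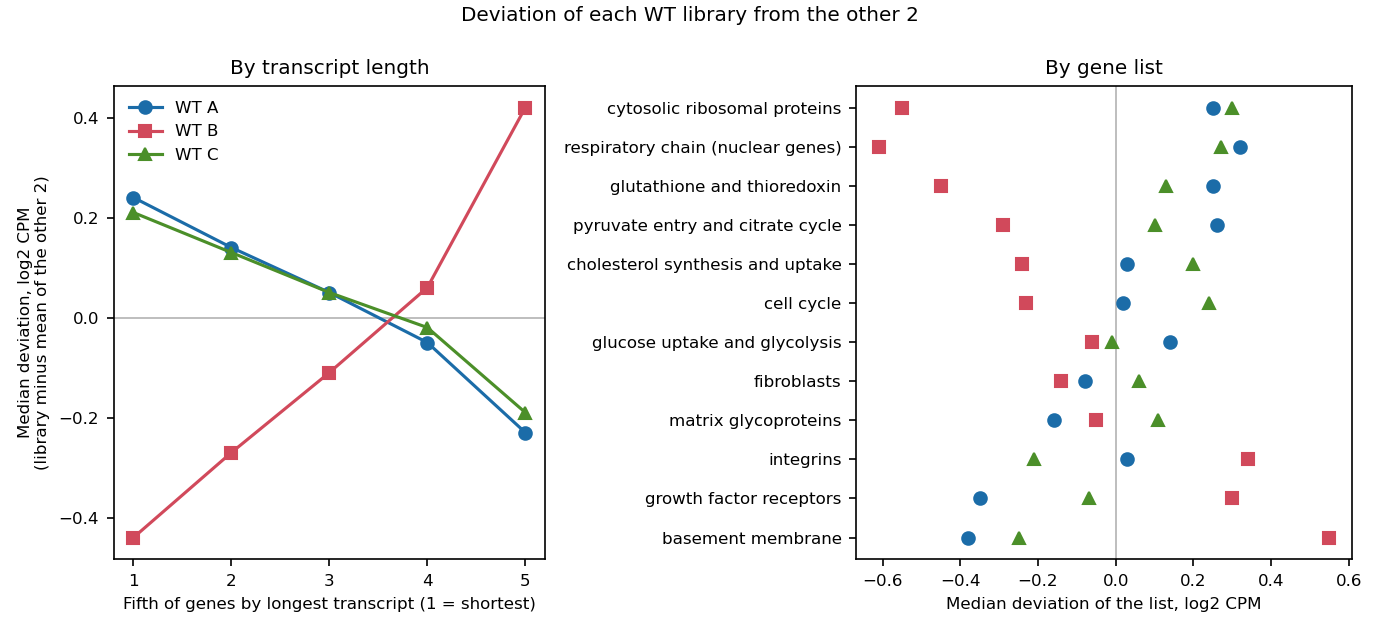
Left, median deviation of each WT library (log2 CPM, library minus mean of the other 2) over 5 equal groups of genes by longest transcript; right, the median deviation of 12 gene lists. Library B runs from -0.44 for the shortest to 0.42 for the longest genes. The deviations of a gene in A, B and C cancel by definition, so A and C together must run the opposite way.

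Among the 5 genes highest in library B by deviation were regulators of chromatin and transcription with transcripts from the longest of the 5 groups. The histone methyltransferase genes were Kmt2d at 54.5, 478 and 56.7 CPM and Setd1b at 2.82, 33.2 and 3.86 CPM, and the zinc finger gene Hivep3 was at 2.14, 29.7 and 4.88 CPM. The pseudogene Atp6v0c-ps2, whose value is uncertain, was at 4.06, 62.8 and 8.18 CPM. The lowest in B were 3 histone genes (Hist1h2ao at 20.4, 2.35 and 16.2 CPM, then Hist1h2ab and Hist1h3h), Scand1 and the proteoglycan gene Ogn. Since deviations are relative, Atp6v0c-ps2, Hivep3, Setd1b and Pom121 were also among the lowest in A.

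The genes of largest deviation in A and C were others. In library C, Aqp1, a water channel, was at 33.3 CPM against 6.09 (A) and 5.71 (B), Ogn at 108 CPM against 43.7 and 23.4, Spon2 at 133 CPM against 54.7 and 39.7, the scavenger receptor Scara5 at 176 CPM against 68.9 and 61.2, and Pde1b at 21.2 CPM against 5.98 and 7.61. Rcan1, a calcineurin regulator, was lower in C at 63.5 CPM against 219 and 169, as were Rgs16 at 15.4 CPM against 50.3 and 45.2, the sugar-phosphate exchanger Slc37a2 at 8.18 CPM against 35.0 and 25.7, and Gvin1 at 8.75 CPM against 23.0 and 96.5. In library A, Lars2 was at 230 CPM against 43.3 (B) and 62.4 (C), a value called uncertain here, and Mnda at 30.9 CPM against 14.7 and 12.6, Rnaset2b at 21.0 CPM against 13.5 and 6.59. For Gvin1, Ogn and Rnaset2b all 3 libraries lay apart from one another.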

How the data were processed

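Expected counts per gene symbol, not normalized, were deposited by the authors in 1 table for the whole series, per the file headers, and the 3 WT columns were matched to samples by name. The submitters' processing notes name STAR 2.5.2b, RSEM 1.3.0 and mm10 without a role. Annotation, strand setting and trimming: not given in the sources used here. Overlapping and antisense genes and near-identical copies can therefore share reads. Values that were not whole made up 1.52% to 1.68% per library, and all values were rounded.

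CPM used the plain totals. TPM used the longest GENCODE vM21 basic transcript of each symbol, leaving out 373 genes without a match and 1278 with a transcript under 300 bases, among them Rmrp (281 bases). Genes without a match, Rn45s included, took 1.68% of counts. Lengths are not the effective lengths of RSEM. Positions came from RefSeq on GRCm38.p6, the assembly of mm10. Deviations used a prior count of 2 and, for lists too, the mean of the other 2 libraries. Pairs of libraries were compared by chi-square over genes with 10 counts or more in both together, and dispersions came from edgeR 4.0.16 in R 4.3.3; DESeq2 1.42.0 gave alternative size factors. Deviations and dispersions were tested on simulated data. The floor covers counting error only, and no molecular identifiers are named in the labels.

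The members and the 49 gene lists were chosen with earlier results of these data known. Named were the 20 highest genes by CPM and by TPM, the 3 highest members of each list, liver markers, absent members mostly in list order, the isozyme pairs, the present Hox genes, the 3 highest of other families and the 5 genes of largest deviation per library and direction. Other absent members, Apoe, Afp, Acta2, Glul, Col1a1, Col6a3 and the chain ratios were chosen after their values were seen. Some genes that this rule names, and the enzyme pairs that hold them, are not reported here.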

Additional observations from a re-analysis of the deposited data

How the results depend on the processing

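Of 430 alternative values, 415 stayed within the spread or within 1.5 times the count first given and 15 did not. At a threshold of 5 CPM, 14 hepatocyte members were present in place of 22, and 2 Hox genes in place of 7, the second alternative having been added after the data were seen, as were the means of single genes without library B. The number of genes 2-fold apart between libraries was 1354 at a mean of 1 CPM and 3367 with no filter. With each library left out in turn it ran from 38 to 594 and the biological coefficient of variation from 10.6% to 26.9%, both lowest without library B. TMM factors, DESeq2 size factors and structural RNA left out of the totals gave 10794, 10794 and 10826 present genes. With median transcript lengths Crabp1 ranked 6 and Vim 3, and the median of the present fibroblast genes was 593 TPM in place of 474. No paired analysis was possible because a single group is described and there is no second group to pair. Depth limits the genes near 1 CPM, about 9 counts per library, where counting error is large, and levels between genes depend on which transcript each gene uses, which the counts do not show.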

Other observations

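Several genes of immune and surface biology had high levels, and they are named here after their values were seen. B2m, the light chain of class I histocompatibility molecules, was at 4073, 3203 and 3377 TPM in A, B and C (rank 41). Ifi27l2a, known as an interferon-stimulated gene, was at 2825, 2057 and 2638 TPM, Ifitm3, which restricts virus entry, at 1918, 1809 and 1575 TPM, and Bst2, which tethers virus particles, at 769, 1195 and 759 TPM. Il1rl1, the receptor of interleukin 33, was at 752, 760 and 401 TPM, lowest in library C. The zinc transporter gene Slc30a4 was at 736 ± 42.4 TPM (SD, n = 3), the phosphate and pyrophosphate transporter gene Ank at 756 ± 220 TPM and the membrane glycoprotein gene Pdpn at 556 ± 74.2 TPM. Cd34, already counted in the fibroblast list, was at 1080 ± 82.9 TPM.

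Beside Crabp1 at 8381 TPM, its relative Crabp2 had 7, 2 and 19 counts, and Rarb, a retinoic acid receptor gene that retinoic acid is known to induce, had no count. Of the matricellular genes Cyr61 and Ctgf, both known targets of YAP, the level of Cyr61 was 20.5, 32.3 and 44.9 times that of Ctgf. Cdkn2b was at 173 ± 15.9 TPM, whereas its neighbour Cdkn2a had 5, 9 and 5 counts, and Trp53 was at 118 ± 20.6 TPM. Xist had 2 counts over the 3 libraries, and the Y-linked genes Ddx3y, Eif2s3y, Kdm5d and Uty had none.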
